A study of Rattus norvegicus with 20 samples.

Results

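Soleus muscle from rats with a contusion of the upper thoracic spinal cord and no exercise afterwards was compared with soleus from uninjured rats. The comparison holds the 4 libraries labelled contusion without swimming or walking and the 4 libraries labelled uninjured, 8 of the 20 libraries in the series. All rats were Sprague-Dawley. The contused animals had a laminectomy and a 25 g-cm impact at T2 and were taken at 11.5 weeks; the uninjured group carries the same time label, although it had no injury to count from. According to the design text all animals moved after 4 days into small cages, 2 to a cage, which restricted their movement, so this restriction is part of both groups. The sources used here do not say whether uninjured rats had a laminectomy, nor the age of any animal. The other 12 libraries, from rats with complete transection at 8.5 weeks and from contused rats exercised by swimming or shallow water walking until 13.5 weeks, entered the fit and serve below as a scale for single genes. Each library comes from the soleus of a separate animal. Poly-A RNA was sequenced and the values are read counts per gene.

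The soleus is a postural muscle of the lower leg made up mostly of slow, oxidative fibres that work almost continuously against gravity. The motor neurons that supply it lie in the lumbar cord, well below a T2 lesion, so after such an injury the muscle keeps its nerve but loses part or all of the command from the brain. A contusion bruises the cord and usually spares some fibres at its rim, and rats with such lesions recover some stepping; a transection spares none. Muscle that is used less commonly loses mass and shifts from slow toward fast contractile proteins.

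The deposited counts name genes by Ensembl identifier. The RefSeq gene table used here (assembly GRCr8, 47357 genes) carries no Ensembl identifiers, so 0 of the 24613 genes could be given a symbol. The slow and fast fibre, atrophy, metabolic and matrix lists and the markers of muscle and other cell types were therefore not examined, and the tissue label was not checked against muscle markers. Genes are described by identifier, level, size and spread. In whole muscle, fewer cells of a type and less RNA per cell cannot be told apart.

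Total counts ran from 26195066 to 39729930 in uninjured and from 22394223 to 35986860 in contusion libraries. The groups separated along the main axis of variation without falling far apart. The first principal component of the 8 libraries held 29.0% of the variance in log2 CPM, the counts scaled to the size of the library. On it the contusion libraries 1 to 4 lay at 17.3, 10.1, 27.2 and 22.8. The uninjured libraries 1 to 4 lay at -31.8, -1.004, -5.35 and -39.2. No contusion library overlapped an uninjured one, and the uninjured libraries lay in 2 pairs, with libraries 2 and 3 nearer to the contused animals than libraries 1 and 4. Contusion library 3 stood alone on the second component, at 43.3 against -14.9 to -5.10 in the other contusion libraries.

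**Figure D1:**
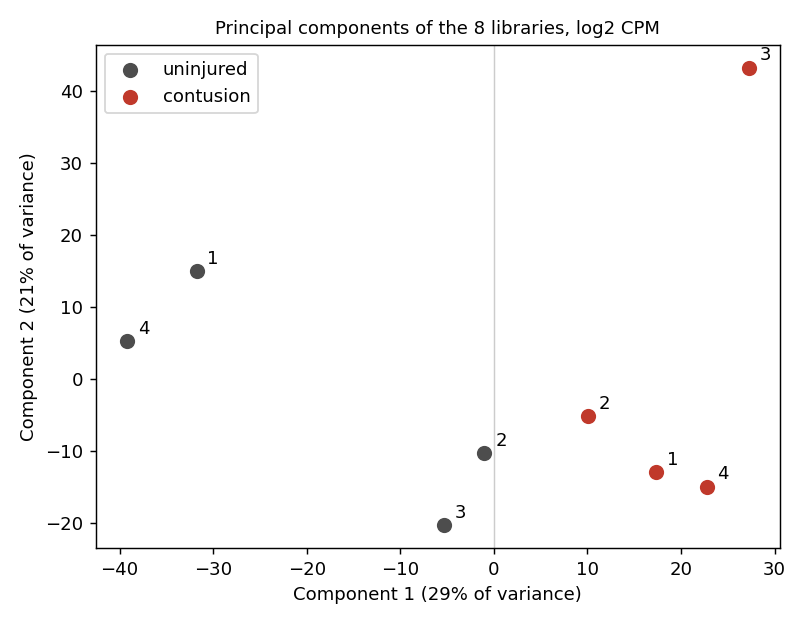
Position of the 8 libraries on the first and second principal components of log2 CPM (axes give the share of variance; numbers are replicate numbers, grey uninjured, red contusion). Contusion libraries lie between 10.1 and 27.2 on the first component and uninjured libraries between -39.2 and -1.004; contusion library 3 is at 43.3 on the second.

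Rank correlations of expression across genes ran from 0.982 to 0.991 for the 6 pairs of uninjured libraries and from 0.981 to 0.990 for the 6 pairs of contusion libraries. For the 16 pairs taken between the groups they ran from 0.973 to 0.990, and 8 of these 16 lay at or above the lowest pair within a group. The median SD of a gene's log2 CPM was 0.24 among uninjured and 0.22 among contusion libraries, and the SD was larger in contusion for 47.0% of genes. Each value is a description over the same genes, with no test.

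No gene was called between the groups. Of 13398 genes tested, 0 (0.00%) passed an adjusted p of 0.05 in edgeR's quasi-likelihood test, the smallest adjusted p being 0.0521. That value was shared by 5 genes, 2 higher and 3 lower after contusion, and 23 genes were under an adjusted p of 0.1. At an unadjusted p under 0.05 there were 675 higher genes (5.04% of those tested) and 638 lower genes (4.76%), 9.80% together. On the same genes DESeq2 called 99 (0.739%) and voom with sample weights in limma called 24 (0.179%). The result of 0 calls thus lay at the edge of the threshold and depended on the test.

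The differences were small for most of the transcriptome. The log2 difference between contusion and uninjured had a median of 0.01 and quartiles of -0.16 and 0.18, with a median standard error (SE) of 0.20. In 74.7% of genes the fitted difference was within 1.25-fold. Differences over 2-fold were found for 211 higher (1.57%) and 136 lower genes (1.02%). In 62 of the former and 70 of the latter the 4 contusion libraries did not overlap the 4 uninjured libraries. Over all tested genes the groups did not overlap for 479 higher (3.58%) and 528 lower genes (3.94%), 7.52% together. The excess of higher genes over 2-fold depended on the filter and fit, which used all 20 libraries. With only the 8 compared libraries in both, 121 genes were over 2-fold higher and nearly as many were lower. At a mean of at least 1 CPM, 89 genes were over 2-fold higher and 69 lower.

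**Figure D2:**
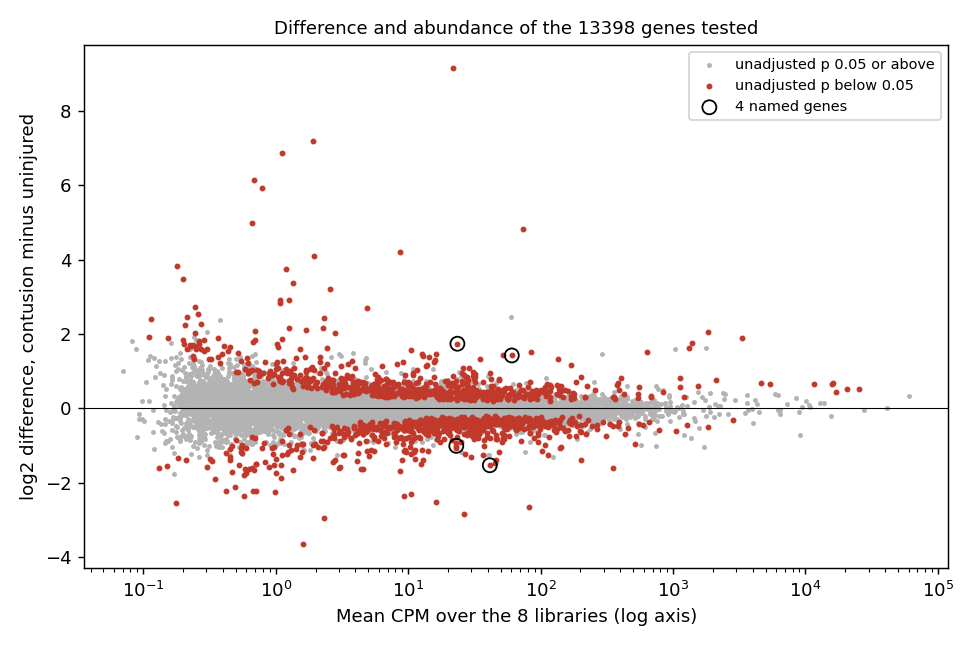
Each point is 1 of the 13398 genes tested, with its mean CPM over the 8 libraries on a log axis and its log2 difference, contusion minus uninjured, on the vertical axis. Red points have an unadjusted edgeR p below 0.05 (675 above and 638 below 0), and the 4 circled genes are those described by name; the points above 4 on the vertical axis have no counterpart below -4.

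Many of the largest differences were uneven among the contused animals. Of the 35 genes that stood over 4-fold higher after contusion, 22 had their highest level in contusion library 3, against 5, 1 and 7 in libraries 1, 2 and 4. How often library 3 was the highest over all tested genes is not given here. In 11 of the 35 the groups did not overlap, against 3.58% of all tested genes. In 15 of the 35 a single contusion library held more than 75% of the CPM summed over the group. Across all tested genes a contusion library held that much in 30, and an uninjured library in 13. By mean CPM, 17 of the 35 were still over 4-fold higher without contusion library 3, whereas 33, 34 and 32 were without library 1, 2 or 4. Refitted with a contusion library left out, which also changes the genes that pass the filter, 29 genes were over 4-fold higher without library 3 and 61, 66 and 54 without library 1, 2 or 4. Of the 14 genes over 4-fold lower, 7 did not overlap, and in 1 an uninjured library held more than 75% of its group's sum. When each gene's own highest library was removed from the group with the higher level, a choice that lowers the difference by construction, 99 of the 211 higher and 71 of the 136 lower genes were still over 2-fold apart by mean CPM.

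The balance of higher and lower genes varied with abundance. Mean CPM over the 8 libraries was used to sort genes into 10 classes of nearly equal size. In the 3 least abundant classes, up to 3.71 CPM, higher genes outnumbered lower ones at an unadjusted p under 0.05, with 47 and 29, 69 and 39, and 73 and 36. In the 3 most abundant classes, from 26.6 CPM, lower genes were more numerous, with 87 against 76, 90 against 63 and 93 against 81. The share of genes with such a p was 5.67% in class 1 and 13.0% in class 10, while the median SE of the log2 difference was 0.56 and 0.15. Lower genes at this limit had a median of 20.2 CPM, higher genes 11.5 and all tested genes 11.2. Without a scaling factor beyond library totals, 271 genes were higher over all classes against 1185 lower, and the median gene shifted from 0.01 to -0.09. The filter used all 20 libraries, so genes could enter the classes through groups not compared here. With only the 8 compared libraries in the filter and fit, 822 genes were higher and 875 lower. At a mean of at least 1 CPM, 624 were higher and 569 lower. The balance within classes is not given for these settings. The division into higher and lower genes is therefore relative to the scaling, the filter and the fit.

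**Figure D3:**
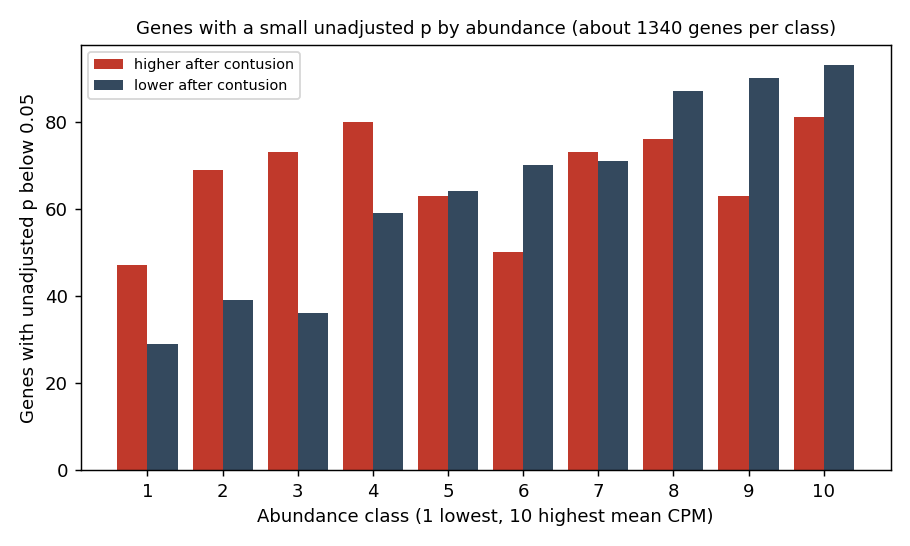
Number of genes with an unadjusted edgeR p below 0.05 in each of 10 abundance classes, from the lowest (1) to the highest mean CPM (10), about 1340 genes each; red bars are higher and dark bars lower after contusion. Higher genes lead in class 3 with 73 against 36, and lower genes lead in class 9 with 90 against 63.

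The 50 most abundant genes, all at 1902 CPM or more, leaned toward higher levels after contusion. At an unadjusted p under 0.05, 10 of them were higher and 1 was lower, and 0 passed after adjustment (smallest adjusted p 0.1998). Over all tested genes 5.04% were higher and 4.76% lower at this limit. The groups did not overlap in 9 genes higher and 1 lower after contusion, against 3.58% and 3.94% of all tested genes. Their median log2 difference was 0.13, against 0.01 for all genes, with single values from -0.70 to 1.89 and 32 of the 50 within 1.25-fold. With library totals only, the counts were 9 higher and 2 lower, and the median was 0.03. With a library left out, 6 to 12 were higher and 0 or 1 lower, and the median ran from 0.05 to 0.16. The fewest higher genes and the lowest median were those without contusion library 1. Abundance class 10, which holds these 50 genes, had 81 higher and 93 lower genes of 1340 at the same unadjusted limit. The list of 50 was taken from these libraries.

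Counts were also summed over the 50 top genes of each library separately. This measure draws on the same counts and is no independent support. The 50 top genes made up 51.3, 46.2, 48.9 and 50.05% of the counts in contusion libraries 1 to 4. In uninjured libraries 1 to 4 they made up 43.9, 45.7, 46.6 and 45.7%. Contusion library 2 lay within the uninjured range and the other contusion libraries above it. The means were 49.1 ± 2.17% and 45.5 ± 1.15% (SD, n = 4 each), a difference of 3.62 percentage points (exact two-sided permutation p = 0.0571, 0.171 after Benjamini-Hochberg adjustment over 3 measures). The smallest p that 4 against 4 libraries allow is 0.0286. With a library left out the difference ran from 2.89 to 4.59 points (exact permutation p from 0.0286 to 0.0857), the smallest p being that without contusion library 2, the library within the uninjured range. That p is also the smallest that 3 against 4 libraries allow. The number of genes with a count was 15522 ± 89.6 after contusion and 15704 ± 183 in uninjured muscle (SD, n = 4 each; exact permutation p = 0.171). Thinned to the smallest total the numbers were 15410 ± 158 and 15383 ± 122 (SD, n = 4 each; exact permutation p = 0.686), so no difference in detected genes was seen at equal depth.

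The 2 higher and 2 lower genes with the smallest edgeR p, among those that averaged 1 CPM or more and had no overlap, are given in full. All 4 had an adjusted p of 0.0521 and were chosen by this comparison, so their values in it are a description.

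ENSRNOG00000011145 had the smallest p of all genes, 1.40e-05. Its level in contusion libraries 1 to 4 was 45.3, 28.1, 44.6 and 27.1 CPM. In uninjured libraries 1 to 4 it was 9.07, 11.9, 15.4 and 6.91 CPM. Each contused animal was above each uninjured one, and the lowest contusion library stood well clear of the highest uninjured library. The means were 36.3 ± 10.0 and 10.8 ± 3.68 CPM (SD, n = 4 each), a 3.34-fold difference (log2 1.74, SE 0.30). The counts behind these levels ran from 219 to 1067 per library.

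ENSRNOG00000026745 stood at 95.2, 79.4, 110 and 68.8 CPM in contusion libraries 1 to 4. In uninjured libraries 1 to 4 it stood at 24.0, 49.0, 34.6 and 23.8 CPM. Uninjured libraries 2 and 3 were the higher pair, as for ENSRNOG00000011145, and still lay below all contusion libraries. The means were 88.3 ± 17.98 and 32.9 ± 11.9 CPM (SD, n = 4 each), a 2.68-fold difference (log2 1.42, SE 0.26).

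ENSRNOG00000019080 was lower after contusion. Its level was 18.7, 27.7, 18.4 and 20.3 CPM in contusion libraries 1 to 4. In uninjured libraries 1 to 4 it was 74.0, 50.4, 42.7 and 78.6 CPM. The contusion libraries lay close together, and uninjured libraries 2 and 3 were again the pair nearer to them. The means were 21.3 ± 4.36 and 61.4 ± 17.5 CPM (SD, n = 4 each), which is 2.88-fold lower (log2 -1.53, SE 0.27).

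ENSRNOG00000001288 was the other lower gene. Its level was 17.9, 16.8, 13.5 and 13.2 CPM in contusion libraries 1 to 4. In uninjured libraries 1 to 4 it was 44.5, 25.6, 25.5 and 27.6 CPM. Uninjured library 1 stood far above the other 3, which were nearly equal, and all 4 were above the contusion libraries. The means were 15.3 ± 2.35 and 30.8 ± 9.17 CPM (SD, n = 4 each), which is 2.01-fold lower (log2 -1.01, SE 0.18). Without uninjured library 1 the log2 difference was -0.78 (edgeR unadjusted p = 7.23e-05, adjusted p = 0.254). No gene had a smaller adjusted p in that fit, so the rise in adjusted p was not particular to this gene.

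**Figure D4:**
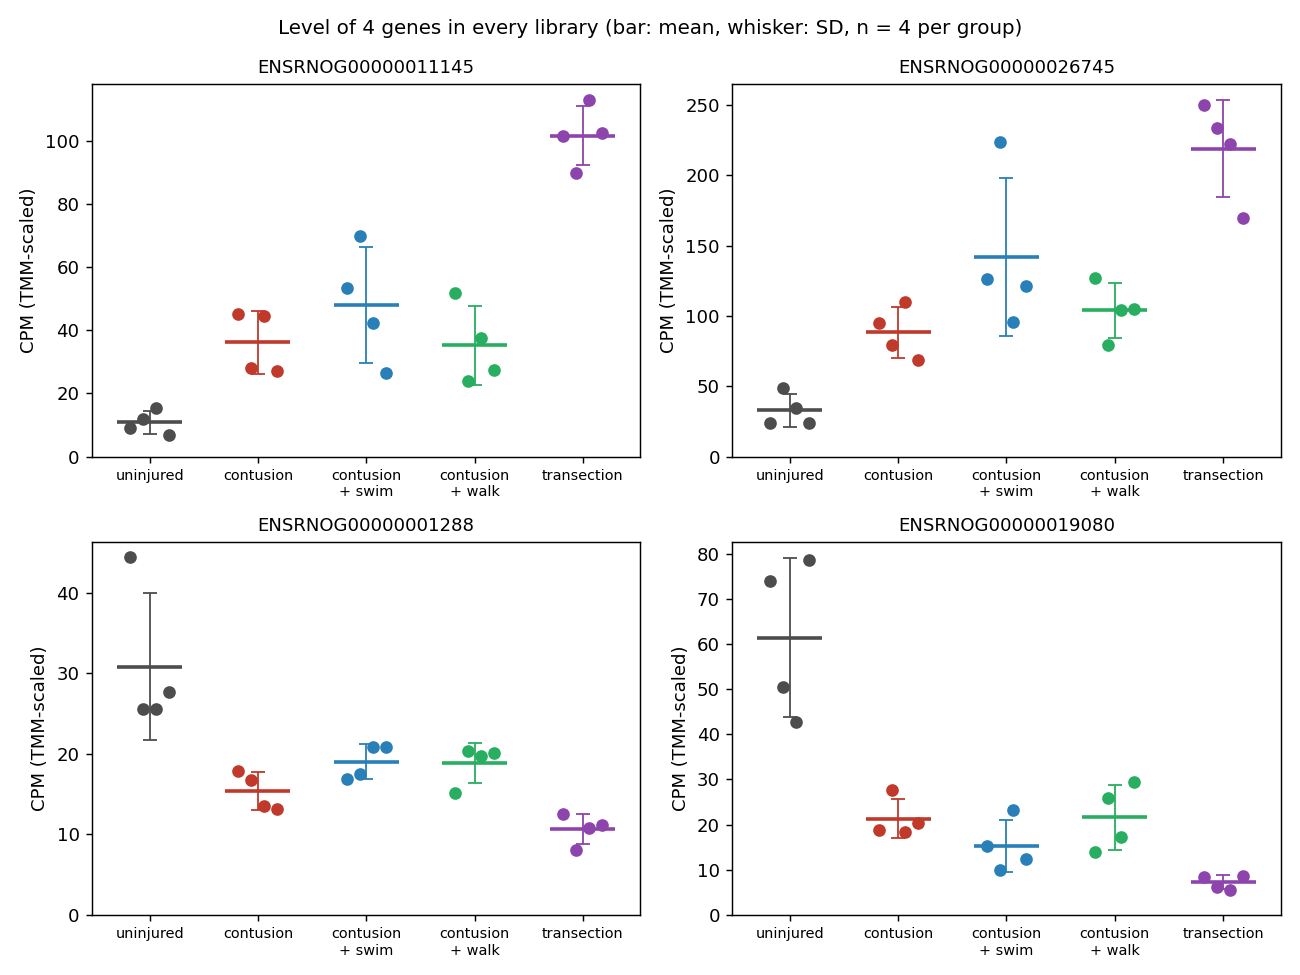
CPM of the 4 genes in all 20 libraries (points), by group, with the mean (bar) and SD (whisker, n = 4 per group); vertical axes are linear and start at 0. In all 4 genes the contusion libraries do not overlap the uninjured ones, and the transection mean is farther from uninjured, at 102, 219, 10.6 and 7.17 CPM for ENSRNOG00000011145, ENSRNOG00000026745, ENSRNOG00000001288 and ENSRNOG00000019080.

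The same 4 genes were read in the other groups, which were not contrasted in this choice but entered its fit. Against the same uninjured libraries, all 4 were called after transection, where 28.1% of all genes were called. ENSRNOG00000011145 and ENSRNOG00000026745 rose there, by log2 3.23 and 2.73 (edgeR adjusted p = 1.04e-06 and 7.37e-07). ENSRNOG00000019080 and ENSRNOG00000001288 fell, with log2 changes of -3.09 and -1.54 (edgeR adjusted p = 4.37e-07 and 5.33e-06). The comparisons share the uninjured animals, so the values stand side by side and a common direction is no independent support. Transected animals were also taken 3 weeks earlier by their labels.

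Compared directly with contusion, where 15.3% of all genes were called, transected muscle differed in 3 of the 4. ENSRNOG00000011145 was at 102, 90.0, 113 and 103 CPM in the transection libraries, all above the contusion libraries (log2 1.49, SE 0.29, edgeR adjusted p = 2.23e-03). ENSRNOG00000026745 was at 250, 234, 223 and 170 CPM, also all above (log2 1.31, SE 0.25, edgeR adjusted p = 1.73e-03). ENSRNOG00000019080 was at 8.44, 6.15, 5.52 and 8.58 CPM, all below (log2 -1.56, SE 0.28, edgeR adjusted p = 8.63e-04). ENSRNOG00000001288 ran from 8.04 to 12.5 CPM after transection, below all contusion libraries, and did not pass (log2 -0.53, SE 0.18, edgeR adjusted p = 0.0516).

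The 4 genes were also compared between contused animals with and without exercise, taken at 13.5 and 11.5 weeks by their labels. ENSRNOG00000011145 was at 35.3 ± 12.5 CPM with walking and 48.0 ± 18.4 with swimming, against 36.3 ± 10.0 without exercise (SD, n = 4 each). ENSRNOG00000026745 was at 104 ± 19.4 and 142 ± 56.1 CPM (SD, n = 4 each), where swimming library 2 held 224 CPM. ENSRNOG00000019080 was at 21.6 ± 7.25 and 15.2 ± 5.73 CPM, and ENSRNOG00000001288 at 18.8 ± 2.46 and 19.0 ± 2.13 CPM (SD, n = 4 each). In all 4 genes both exercised groups overlapped the contusion group and neither was called against it by edgeR, where 0.00% of all genes were called for walking and 4.48% for swimming. The log2 differences from contusion ran from -0.04 to 0.30 with walking (adjusted p = 0.9998 in each) and from -0.48 to 0.69 with swimming (smallest adjusted p 0.115).

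Against uninjured muscle, all 4 genes were called with swimming, where 20.0% of genes were called, and 3 of 4 with walking, where 0.463% were. The genes were chosen for their difference from these same uninjured libraries, so the calls are no independent support. By their labels the exercised animals were also taken later. The log2 differences with walking were 1.70 for ENSRNOG00000011145 (edgeR adjusted p = 0.0186), 1.66 for ENSRNOG00000026745 (7.68e-03) and -1.50 for ENSRNOG00000019080 (0.0199), and -0.71 for ENSRNOG00000001288, which did not pass (0.0761). The walking difference of ENSRNOG00000011145 was thus called at 1.70 while the contusion difference of 1.74 was not. The adjusted p depends on how many other genes have small p-values in the same comparison, and the unadjusted p-values were 1.80e-05 and 1.40e-05.

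The genes called by the other tests had small edgeR p-values as well. The 99 genes of DESeq2 were 38 higher and 61 lower, with median log2 differences of 0.94 and -1.002. All 99 had an unadjusted edgeR p under 0.05, against 9.80% of all tested genes. In 90 of them the groups did not overlap, against 7.52% of all tested genes. The 24 genes of voom were 12 higher and 12 lower, and the groups overlapped in none of them. The tools shared 23 genes, which is 95.8% of the voom calls and 23.2% of the DESeq2 calls. All 4 named genes were called by DESeq2 and voom. The tests used the same counts of the same libraries, so their overlap is no independent support.

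The number of genes called by edgeR depended on which uninjured animals entered the fit. Without uninjured library 2 edgeR called 14 genes, 3 higher and 11 lower, and without uninjured library 3 it called 15, 2 higher and 13 lower. Without uninjured library 1 or 4, the pair farther from the contused animals on the first component, it called 0, and the smallest adjusted p was 0.254 and 0.297. Leaving out any single contusion library gave 0 calls, with smallest adjusted p-values from 0.0857 to 0.239. When only the 8 libraries of the comparison entered the fit, 28 genes were called, 15 higher and 13 lower, with a smallest adjusted p of 5.45e-03. Transection library 3 and swimming library 2, in neither group compared, were picked after seeing the data as standing apart from their groups. The measure behind this choice is not given here. Without both, 13516 genes passed the filter and 46 genes were called, 18 higher and 28 lower.

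**Figure D5:**
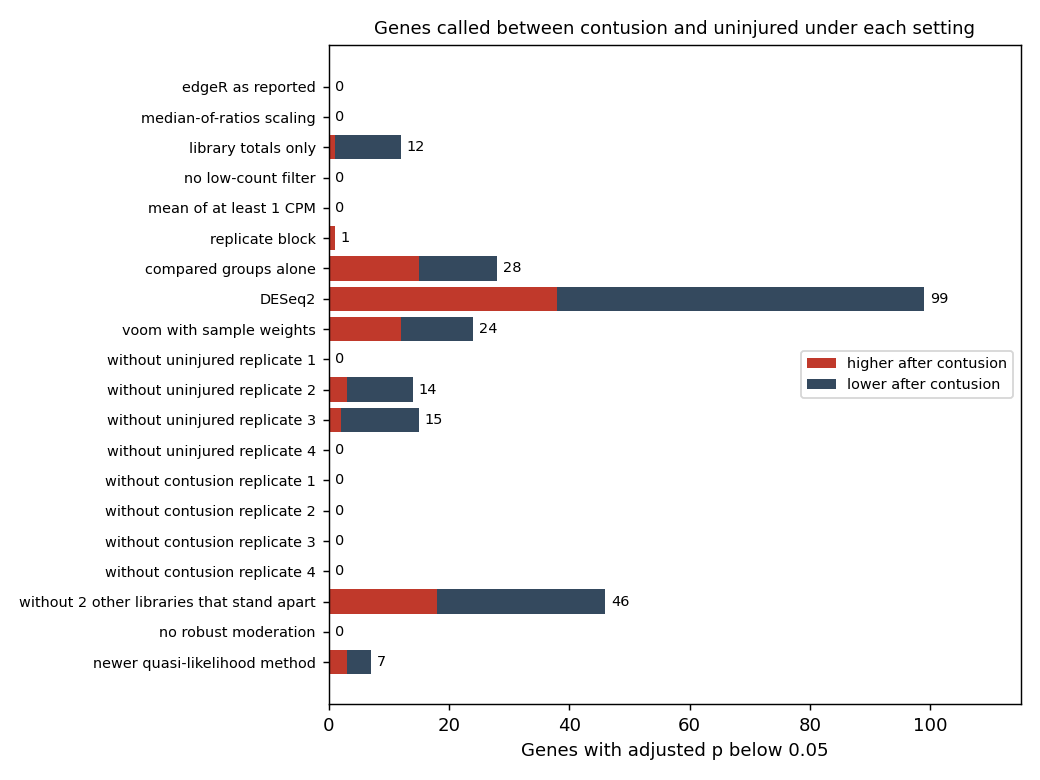
Number of genes with an adjusted p below 0.05 between contusion and uninjured under each setting, higher (red) and lower (dark) after contusion, with the total beside each bar. The count is 0 in edgeR as reported and runs up to 99 with DESeq2.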

How the data were processed

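The authors deposited whole-number read counts per Ensembl gene, without normalisation; the submitters' processing notes name FastQC 0.10.1, HTSeq and rn6, while aligner, annotation and strand setting are not given in the sources used here, so overlapping or near-identical genes may share counts. Columns were matched to samples by their labels. All 20 libraries entered 1 fit with a mean per group (15 residual degrees of freedom) in edgeR 4.0.16 (R 4.3.3): filterByExpr with a minimum count of 10, trimmed mean of M values (TMM) scaling, glmQLFit with its robust option, and Benjamini-Hochberg adjustment over all 13398 genes. CPM use the scaled library sizes, and the SE is the log2 difference divided by the square root of F. Fold changes carry a prior count of 0.125, and components used a prior count of 2. DESeq2 1.42.0 and limma 3.58.1 (voom) were alternatives; 24 genes had no adjusted p in DESeq2. Library measures were tested by exact permutation. Within a group, pairs of libraries differed by a chi-square of 33.1 to 107 per degree of freedom, so none was taken for a copy. Named genes followed a fixed rule: the 2 higher and 2 lower identifiers with the smallest p, at least 1 CPM on average and no overlap. Members, lists and tests were chosen with earlier results of these data known. The tests were checked on simulated data. Figures used matplotlib 3.10.9.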

Additional observations from a re-analysis of the deposited data

Results flagged for a closer look

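In 30 groups of 4 values, 4 had a highest or lowest library set apart by a wide gap; chance flags about 1 in 20, or 1.5. ENSRNOG00000001288 stood at 44.5 CPM in uninjured library 1, the next highest being 27.6, and at 15.2 CPM in walking library 1, the next lowest being 19.7. Contusion library 3 had a mean rank correlation with its group of 0.982, the next lowest 0.986. Uninjured library 4 had a TMM factor of 0.982, below the 1.08 of the nearest library. Transection and contusion differed by the direct edgeR test in 3 of the 4 named genes: the log2 difference was 1.49 for ENSRNOG00000011145 (adjusted p = 2.23e-03), 1.31 for ENSRNOG00000026745 (1.73e-03) and -1.56 for ENSRNOG00000019080 (8.63e-04).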

How the results depend on the processing

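The count of 0 called genes was also 0 with median-of-ratios scaling, without the low-count filter, at a mean of at least 1 CPM and without robust moderation. It became 12 with library totals only, 28 with the compared groups alone, 99 with DESeq2 and 24 with voom. With the replicate number as a block it was 1, ENSRNOG00000011145 (edgeR adjusted p = 0.0401). The deviations of same-numbered libraries correlated between -0.16 and 0.03, and those of differently numbered libraries between -0.264 and 0.265. No pairing by number was seen, but so few pairs cannot exclude it. Of the alternatives added after seeing the data, edgeR's newer quasi-likelihood method called 7 genes and the fit without transection library 3 and swimming library 2 called 46. With a library left out it ran from 0 to 15. At an unadjusted p under 0.05, library totals gave 271 higher and 1185 lower genes, and leaving out a library gave 461 to 738 and 449 to 717. The 4 named genes kept their direction under all 19 alternatives, with adjusted p-values from 3.99e-05 to 0.297. They were chosen for no overlap between these same libraries, so their direction could hardly change and is no support. The share of the most abundant genes differed by 3.17 points with 200 genes per library (exact permutation p = 0.0286), by 3.02 points with 10 (exact permutation p = 0.143) and by 2.89 to 4.59 with a library left out. The p with 200 genes is unadjusted and is the smallest that 4 against 4 libraries allow. The difference in detected genes was -245 to -116 with a library left out and 26.8 at equal depth; that in rank correlation with the own group ran from -0.000524 to 0.00103. Gene lists were not run, since no identifier had a symbol. Counting error is small at these totals for abundant genes, where the spread between 4 animals sets the precision. In the least abundant class, up to 0.64 CPM, counts are few and that error is larger. The median SE was 0.56 there and 0.15 in class 10.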
